A study of Mus musculus with 14 samples.

Results

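The microRNAs mmu-miR-137, mmu-miR-153, mmu-miR-383 and mmu-miR-873 are 4 of the 1046 mature miRNA names in a table of read counts from 14 tissues of mice of the inbred laboratory strain C57BL/6J. They were selected on these same counts, because the level of each in the brain library exceeded that in cerebellum and in every other library. That pattern is therefore given below as a description, with no test. What the choice did not use is the order of the other 12 libraries among themselves, the other arm of each hairpin, and the sequences and host genes. The tissues were brain and cerebellum, the digestive organs oesophagus, stomach, small intestine, colon, liver and pancreas, and heart, lung, spleen, kidney, uterus and ovary, each untreated as far as the labels say and each represented by 1 library of pooled total RNA. The labels give neither age nor sex, and they do not say whether the brain sample included or lacked the cerebellum, so no statement about the forebrain can be drawn from the label brain. They give both 5 and 10 as the number of mice, and which holds was not settled here.

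A miRNA is cut from a hairpin RNA as a duplex of about the length of a small interfering RNA, and the strand that Argonaute keeps guides it to messenger RNAs that pair with its seed, bases 2 to 8. Neurons hold a distinctive set of miRNAs. Of the 4 described here, miR-137 is studied in neuronal maturation and synaptic function, and miR-153 in the control of proteins of synaptic vesicles. The RefSeq annotation of GRCm38.p6 places Mir153 inside Ptprn2, which encodes a membrane protein of dense-core vesicles in neuroendocrine cells, Mir383 inside Sgcz, which encodes a sarcoglycan, and Mir873a inside Lingo2, which encodes a leucine-rich repeat membrane protein of neurons. No other gene in that annotation overlaps Mir137. Mir873a lies next to Mir876, and Mir873b is annotated on the opposite strand of the same stretch. Whether the counting used strand is not given in the sources used here, and without it reads of these 2 cannot be told apart. Because no genome build is named for the counts, no coordinates are printed.

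RefSeq (GRCm38.p6) held the mature sequences of 3 of the 4, miR-137, miR-153 and miR-873. The table gives plain and starred names without arms or sequences, and plain names were matched to the present arm names by general knowledge of the older naming. The sequences are shown 5′ to 3′ to compare their seeds, which are in capitals, together with miR-448-3p, another miRNA of the neural list used below.
miR-137 (now miR-137-3p): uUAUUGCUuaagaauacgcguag
miR-153 (now miR-153-3p): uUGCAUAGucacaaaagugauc
miR-448-3p: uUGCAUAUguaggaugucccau
miR-873 (now miR-873a-5p): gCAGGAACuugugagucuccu
The seeds of the 3 members differed from each other. Among 1738 RefSeq mature mouse sequences, bases 2 to 8 of miR-137 and of miR-153 occurred in no other, and those of miR-873 occurred in 1 other, miR-6370, which was not analysed here. Bases 2 to 7 of miR-153 were shared with miR-448-3p, which had 24 reads in brain (4.51 per 1000000 reads) against 2018 for miR-153, and with miR-6335, which was not analysed here. These 3 miRNAs are thus not a seed family. The GC content of the mature sequence was 34.8% for miR-137, 36.4% for miR-153 and 52.4% for miR-873.

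Levels are given as reads per 1000000 miRNA reads of the library (RPM), with the 95% exact Poisson interval in brackets. Those intervals cover only counting error. No tissue had a replicate library, and each difference below compares 2 libraries. Library totals ran from 622132 reads in pancreas to 9341000 in small intestine, with 5316969 in brain and 1134677 in cerebellum. Where a name had no read, a level of up to 3 reads is allowed, or 0.564 RPM in brain, 2.64 RPM in cerebellum and 4.82 RPM in pancreas. In bulk tissue, fewer cells of a type and less RNA per cell cannot be told apart. The neural markers miR-9, miR-124 and miR-128 together reached 74149 RPM in brain and 36733 RPM in cerebellum, and at most 420 RPM in any other library (oesophagus). Both libraries thus held neural markers. The same names served for both labels, so they do not tell brain from cerebellum. The library labelled uterus held 78771 RPM of the intestinal miRNAs miR-192, miR-194 and miR-215 and the library labelled colon 25.2 RPM, so both are named by their labels. miR-143 took 98.7% of the reads in the colon library and 87.1% in ovary, which lowers the RPM of every other name there. Its share was also large in stomach (70.2%), lung (61.1%), the uterus library (56.8%), small intestine (53.6%) and spleen (51.8%). It was 6.32% in brain and 4.53% in cerebellum, and from 4.01% (pancreas) to 29.6% (kidney) in the remaining libraries. RPM outside brain and cerebellum is thus lowered to unlike degrees.

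In brain, miR-383 stood at 1585 RPM (1552–1620), from 8430 reads, and miR-137 at 1407 RPM (1375–1439), from 7480 reads. miR-153 followed with 380 RPM (363–396) and miR-873 with 173 RPM (162–184). Among the 670 names with reads in brain they took places 35, 39, 96 and 121, so all were abundant without being among the leading names. Neighbours in this order differed by more than counting error, also miR-137 and miR-383, whose ratio was 0.887 (0.860–0.915). Ligation and amplification can differ between sequences, so ratios between miRNAs describe reads, not molecules.

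In cerebellum the order was not the same. miR-383 stood at 172 RPM (149–198), from 195 reads. miR-873 had 15.9 RPM (9.40–25.1) from 18 reads, miR-137 13.2 RPM (7.40–21.8) from 15 reads, and miR-153 12.3 RPM (6.75–20.7) from 14 reads. These last 3 lay within counting error of each other, although in brain miR-137 was 8.14-fold (7.60–8.73) above miR-873. The brain to cerebellum ratio therefore ran over an order of magnitude among the 4. It was 106 (64.5–190) for miR-137, 30.8 (18.3–56.4) for miR-153, 10.9 (6.86–18.5) for miR-873 and 9.23 (8.0–10.7) for miR-383, with exact conditional binomial intervals. Those of miR-137 and miR-153 did not overlap those of miR-383, while those of miR-873 and miR-383 overlapped each other.

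**Figure D1:**
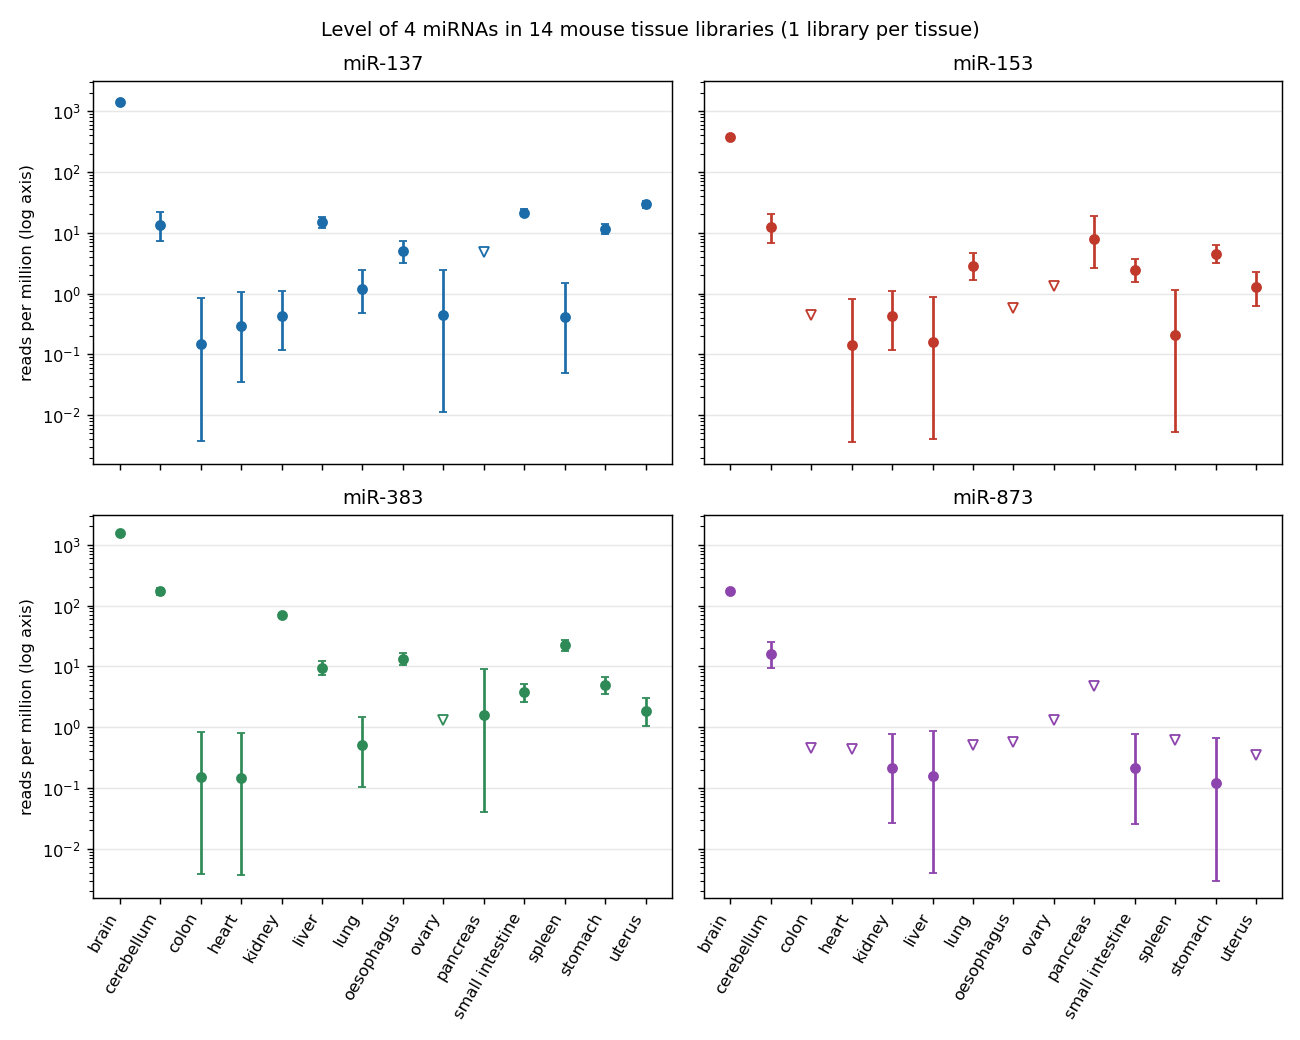
RPM (log axis) of each miRNA in each of 14 libraries named by their labels. Points are the measured level, bars the 95% exact Poisson interval, and open triangles libraries with no read, drawn at the level of 3 reads. Brain is the highest point in every panel, and the next highest library, with these totals, is cerebellum in 3 panels and uterus for miR-137.

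Being highest in brain is common in these data. Of 418 names that reached 10 RPM in any library, 133 (31.8%) were highest in brain, and of 347 names that reached 10 RPM in either neural library, 105 (30.3%) were at least 4 times higher in brain. All 4 miRNAs met both conditions, which the choice of the 4 fixed or made likely, so nothing is read from that count. Ordered by the log2 ratio of brain to cerebellum with 1 RPM added to both, miR-137 came first of the 347 with 6.63, miR-153 took place 11 with 4.83, miR-873 place 46 with 3.37 and miR-383 place 52 with 3.20. The median over all 347 names was 0.55. On the plain ratio miR-137 took place 10, because 9 names without a read in cerebellum come first there. On it miR-153 took place 19, miR-873 place 50 and miR-383 place 60. At the edge of the rule, miR-107 was just inside it with 93.5 RPM in brain against 90.7 in kidney, and miR-412-5p just outside with 16.9 RPM in brain against 17.6 in cerebellum.

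**Figure D2:**
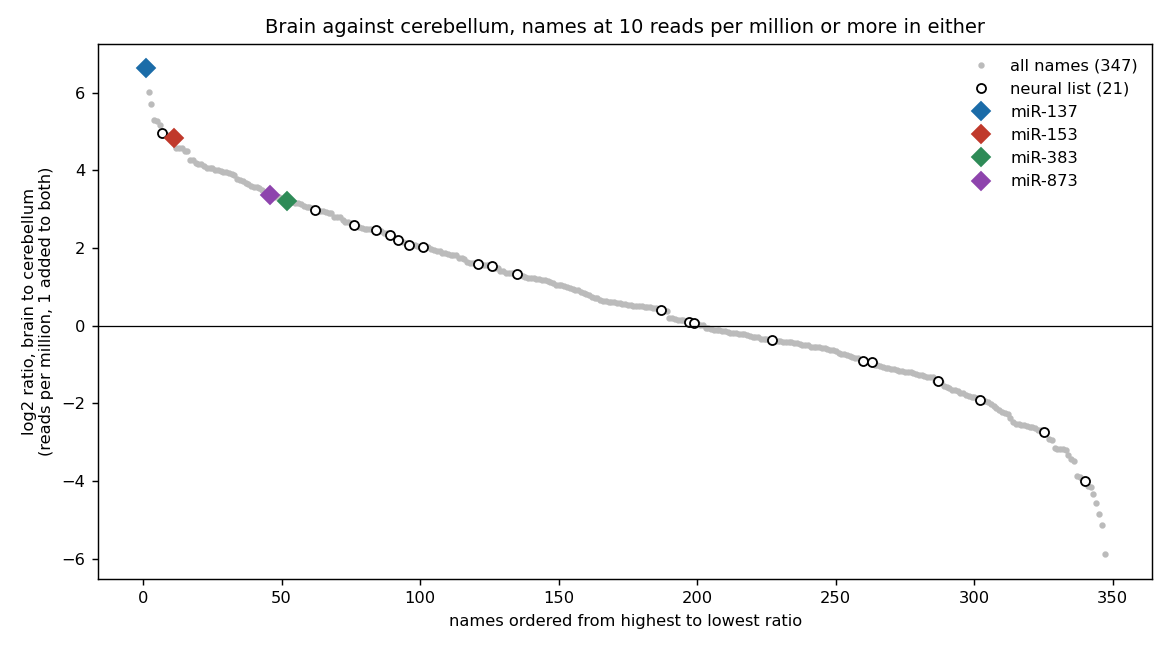
Log2 ratio of brain to cerebellum (1 RPM added to both) for 347 names that reached 10 RPM in either library, ordered from highest to lowest. Grey dots are all names, open circles the 21 names of the neural list that reached this level, and diamonds the 4 miRNAs, which lie between 3.20 and 6.63, above the median of 0.55.

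Other miRNAs known from the nervous system were spread over both directions. Of 25 names on a neural list, 24 matched a name in the table and 21 reached 10 RPM in brain or cerebellum. Of these 21, 14 (66.7%) were higher in brain and 7 in cerebellum, against 202 of 347 names (58.2%) higher in brain. At least 4 times higher in brain were 8 (38.1%, against 30.3% of all names), and 2 (9.52%, against 13.3%) were at least 4 times higher in cerebellum. Their median log2 ratio was 1.33, against 0.55 over all 347 names. miR-128, enriched in neurons, had a ratio of 5.02 (4.76–5.29), miR-132, an activity-regulated miRNA, 5.53 (4.66–6.60), and miR-9, a miRNA of neural progenitors and neurons, 4.24 (4.17–4.30). miR-124, the most widely used neuronal marker, had a ratio of 0.265 (0.261–0.270), since it was higher in cerebellum. miR-495, a miRNA of the Dlk1-Dio3 cluster, had the highest ratio of the 21, 42.3 (14.4–205), with 3 reads in cerebellum.

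The same contrast can be written as reads per 1000 reads of the neural list in the same library, which restates the values that chose the members and adds no support to them. On this measure miR-137 had 14.9 reads in brain and 0.191 in cerebellum. The values were 4.02 and 0.179 for miR-153, 1.83 and 0.230 for miR-873, and 16.8 and 2.49 for miR-383. In the 12 other libraries the neural list itself summed to at most 775 RPM (oesophagus), and brain was not always highest. miR-137 had 58.7 in the uterus library, miR-383 118 in kidney, and miR-153 82.0 in pancreas, from 5 reads. For miR-873 no measured value of the 12 exceeded brain, and the highest was liver with 0.579 (0.0147–3.23), from 1 read. That interval includes the brain value, so these counts do not show that brain was highest on this measure. Markers of other cell types also differed between brain and cerebellum. Of 14 marker lists of other cell types and tissues, 9 had a higher sum in brain and 5 in cerebellum. The endothelial miR-126-3p had the highest ratio of the lists with reads in both, 16.1, with 5493 RPM in brain and 340 in cerebellum. White blood cell names summed to 219 and 48.5 RPM, squamous names to 102 and 27.3, red blood cell names to 96.1 and 26.4, and the endocrine pair miR-375 and miR-7a, the latter also on the neural list, to 632 and 229. Sums of the epithelial, heart (which shares miR-1 and miR-133a with the skeletal muscle list) and smooth muscle lists were 1.40 to 2.37 times higher in brain, and the ovarian pair had 0.376 RPM in brain and no read in cerebellum. In the other direction, the choroid plexus pair miR-204 and miR-204* had 38.2 RPM in brain and 231 in cerebellum, the intestinal names 780 and 2002, miR-122 of liver 82.2 and 121, and the acinar names of pancreas 112 and 137. The skeletal muscle names summed to 3631 and 9216 RPM, but miR-206 stood at 459 RPM in brain and 7143 in cerebellum while miR-1 stood at 3160 in brain and 2045 in cerebellum. The let-7 family took 64.4% of brain reads and 33.3% of cerebellum reads, and miR-378 took 2.34% and 34.5%. The median GC content of the hairpins was 45.2% for names at least 4 times higher in brain (98 of 105 matched) and 52.4% for names at least 4 times higher in cerebellum (38 of 46 matched). It was 51.2% for the names between (165 of 196 matched) and 48.7% for all (301 of 347 matched). The hairpins of miR-137, miR-153 and miR-873, themselves among the names higher in brain, had 45.2%, 42.0% and 46.8%. The part of these differences in the brain to cerebellum ratios was not tested.

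Outside the nervous system, neighbours in the order of tissues differed beyond counting error only for miR-137 and miR-383. In the library labelled uterus miR-137 reached 29.4 RPM (25.9–33.3), followed by small intestine with 21.4 (18.5–24.6), liver with 15.0 (12.1–18.3) and stomach with 11.6 (9.43–14.2). Its cerebellar level of 13.2 RPM was thus only in place 5 of 14. That place depended on the scaling, being 6 with median-of-ratios size factors, without miR-143 or without the 5 most abundant names in the totals, but 2 without let-7 and miR-378 in the totals. The uterus and small intestine libraries differed beyond counting error (ratio 1.37, 1.14–1.66), and the uterus library exceeded cerebellum, since the cerebellum to uterus ratio was 0.449 (0.248–0.755). With library totals, liver, cerebellum and stomach, neighbours in the order, did not differ beyond counting error. Next came oesophagus with 4.95 RPM (3.23–7.25) and lung with 1.18 (0.474–2.43). Kidney, spleen, heart, ovary and the colon library had 1 to 4 reads each, at 0.433, 0.412, 0.288, 0.441 and 0.150 RPM, and pancreas had none. Brain was 47.8-fold (42.2–54.4) above the uterus library, and between 16.7-fold and 107-fold under the 4 other scalings. The order below it also depended on scaling. With miR-143 left out of the totals, stomach stood at 39.0 RPM, above liver (16.0) and cerebellum (13.8).

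miR-383 was the member with the most reads outside brain and cerebellum, 970 in the 12 libraries. Kidney held 635 of them, at 68.8 RPM (63.5–74.4), and cerebellum exceeded kidney by only 2.50-fold (2.12–2.94). Spleen followed with 22.0 RPM (18.1–26.6), oesophagus with 13.3 (10.4–16.8), liver with 9.46 (7.22–12.2), stomach with 4.86 (3.49–6.59), small intestine with 3.75 (2.61–5.21) and the uterus library with 1.84 (1.05–2.99). Kidney stood 3.12-fold (2.54–3.87) above spleen, and spleen 1.65-fold (1.21–2.27) above oesophagus. Lung had 0.505 RPM from 3 reads, pancreas, heart and the colon library had 1 read each, and ovary had none, which allows up to 1.32 RPM. Brain was 23.0-fold (21.3–25.0) above kidney, and between 17.3-fold and 38.6-fold under the 4 other scalings. With miR-143 left out of the totals, stomach (16.3 RPM) stood above liver (10.1 RPM).

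miR-153 had 101 reads in the 12 libraries. Pancreas was highest with 8.04 RPM, but from 5 reads (2.61–18.8), followed by stomach with 4.50 (3.19–6.18) from 38 reads, lung with 2.86 (1.67–4.58), small intestine with 2.46 (1.56–3.69) and the uterus library with 1.26 (0.631–2.26). None of these neighbours, cerebellum included, differed from the next beyond counting error. Cerebellum was in place 2 of 14 with totals and without let-7 and miR-378, in place 3 with median-of-ratios size factors or without miR-143, and in place 4 without the 5 most abundant names. Kidney had 4 reads, liver, heart and spleen 1 each, and oesophagus, ovary and the colon library none. Brain stood 47.2-fold (20.2–146) above pancreas, but 5.57-fold with median-of-ratios size factors and 15.7-fold without the 5 most abundant names. With miR-143 left out of the totals stomach was highest, at 15.1 RPM.

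miR-873 had few reads outside brain and cerebellum. The 12 libraries held 6 reads together, 2 in kidney, 2 in small intestine and 1 each in liver and stomach, and the other 8 had none. Kidney, with 2 reads (0.217 RPM), was the highest measured of the 12 but lies under the 3-read floor, so the ratio of 798 (220–6598) to brain has a wide interval and does not show which library was highest. It was 355 with median-of-ratios size factors, 308 without the 5 most abundant names, 400 without miR-143 and 1337 without let-7 and miR-378, and small intestine took the place of kidney in the first 3 of these. Pancreas, the shallowest library, had no read, and its floor of 4.82 RPM allows only that brain was at least 35.8-fold and cerebellum at least 3.29-fold higher. Over the 12 libraries pooled, 6 reads of 74594190 gave 0.0804 RPM, and the ratio to this pool was 2149 (983–5871) for brain and 197 (75.0–607) for cerebellum. The specificity index tau, which is 0 for equal levels in all libraries and 1 for a single library, was computed on log2(RPM + 1). It was 0.948 for miR-873, 0.861 for miR-153, 0.804 for miR-137 and 0.754 for miR-383. Over 418 names the median was 0.640 and the upper decile 0.912. The choice of the members by their brain level made values above the median likely, so nothing is read from that.

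**Figure D3:**
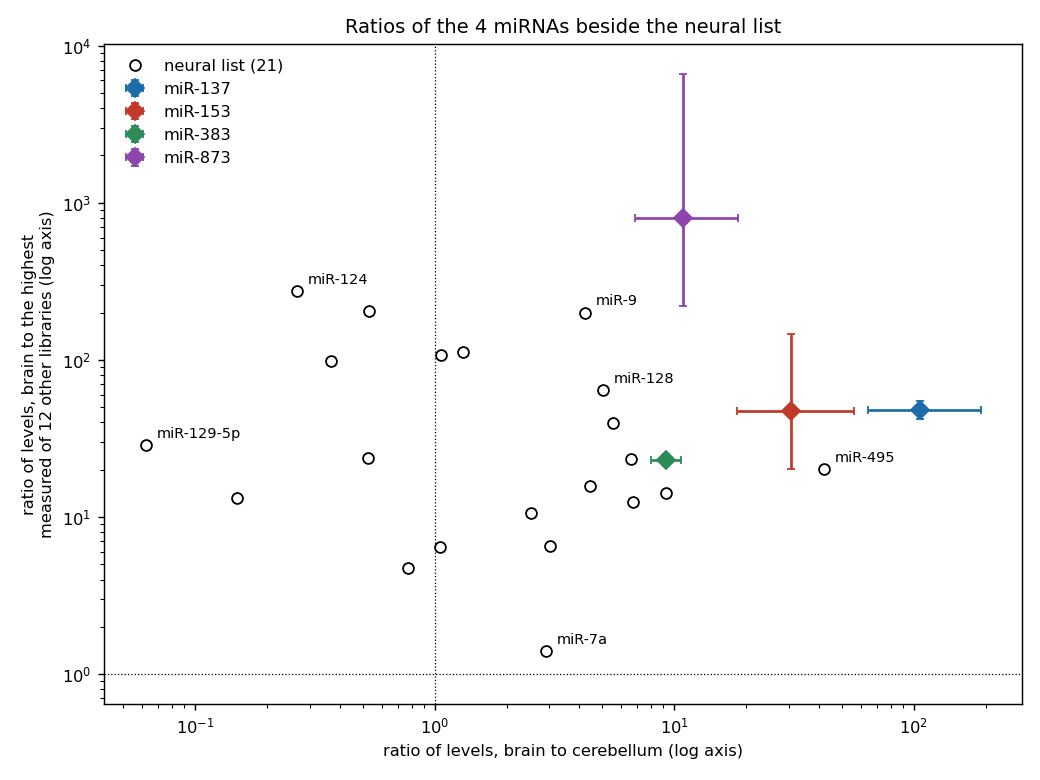
Ratio of brain to cerebellum (horizontal, log axis) and of brain to the highest measured of the 12 other libraries (vertical, log axis) for the 4 miRNAs with 95% exact intervals, and for 21 names of the neural list as open circles. miR-873 lies at 798-fold, a value that rests on 2 reads in kidney, and a brain to cerebellum ratio of 10.9, miR-137 lies far right (106) at 47.8-fold, and miR-124 lies left of 1 at 0.265.

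As a percentage of the level in brain, miR-137 stood above miR-383 in liver and the uterus library, and below it in kidney. In liver, miR-137 stood at 1.06% of its brain level, miR-383 at 0.596%, miR-873 at 0.0912% and miR-153 at 0.0415%, beside 0.0946% for miR-9. Kidney held miR-383 at 4.34%, against 0.125% for miR-873, 0.114% for miR-153, 0.0308% for miR-137 and 0.370% for miR-9. The library labelled uterus held miR-137 at 2.09%, miR-153 at 0.333%, miR-383 at 0.116% and miR-9 at 0.123%. The liver values of miR-153 and miR-873 rest on 1 read each. In kidney, the miR-873 value rests on 2 reads and those of miR-153 and miR-137 on 4 each. In stomach the names lay closer, at 1.19% for miR-153, 0.826% for miR-137, 0.307% for miR-383, 0.30% for miR-9 and 0.364% for miR-124, with miR-873 at 0.0686% from 1 read.

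**Figure D4:**
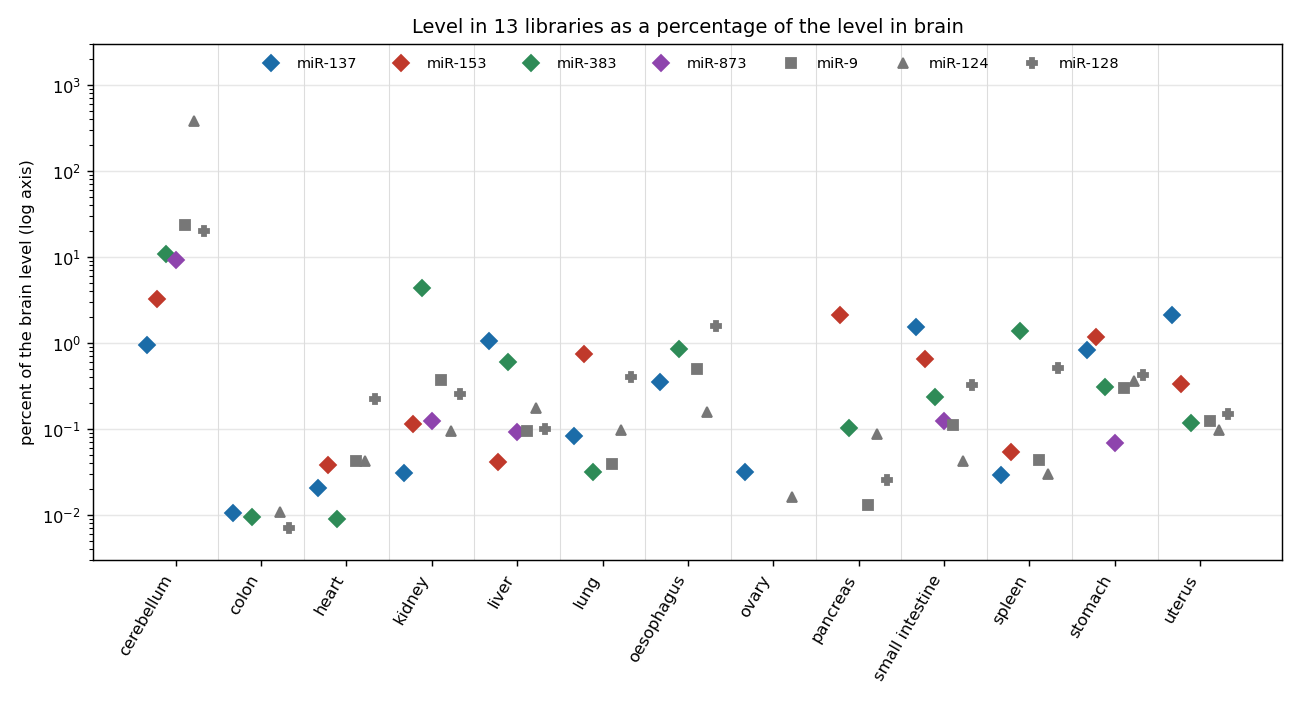
Level in 13 libraries as a percentage of the level in brain (log axis) for the 4 miRNAs (diamonds) and the neural markers miR-9, miR-124 and miR-128 (grey); a name with no read in a library is not drawn. In cerebellum the 4 lie between 0.94% and 10.8%, below miR-9 (23.6%), miR-128 (19.9%) and miR-124 (377%); miR-383 stands out in kidney (4.34%) and miR-137 in the uterus library (2.09%).

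Across all 14 libraries, Pearson's r of log2(RPM + 1) between pairs of the 4 ran from 0.66 (miR-137 with miR-383) to 0.89 (miR-153 with miR-873). These points share the 2 neural libraries that chose the members, and the common dilution by miR-143. Across the 12 others r ran from −0.14 (miR-153 with miR-383) to 0.56 (miR-383 with miR-873), and was 0.17 for miR-137 with miR-153. With miR-143 left out of the totals these 3 values were −0.11, 0.44 and 0.27. In the 9 libraries other than colon, ovary and pancreas they were −0.39, 0.46 and 0.38. For the mean of each marker list over the same 12 libraries, the 2 lists with the highest r are given for each member. miR-137 had 0.82 with the intestinal miR-192, miR-194 and miR-215 and 0.63 with the endocrine pair, which became 0.78 and 0.56 without miR-143 in the totals. In the 9 libraries these were 0.82 and 0.72, and the acinar names had 0.77. miR-153 had 0.76 with the acinar names and 0.71 with the endocrine pair (0.47 and 0.75 without miR-143). Pancreas, where the acinar names were highest, held only 5 reads of miR-153. In the 9 libraries the acinar value was 0.55, below the smooth muscle names with 0.62, and the endocrine value was 0.73. miR-383 had 0.64 with the neural markers and 0.63 with the red blood cell names (0.61 and 0.53 without miR-143). In the 9 libraries both were 0.41, below the choroid plexus pair with 0.55. miR-873, on 6 reads, had 0.60 with the intestinal and 0.46 with the epithelial names (0.61 and 0.53 without miR-143). In the 9 libraries these were 0.53 and 0.34, and the endocrine pair had 0.40. With the neural markers r was 0.52 for miR-137, 0.19 for miR-153 and 0.39 for miR-873. These lists stand high in the same libraries (small intestine held 212864 RPM of the intestinal list, and the uterus library 78771), and 12 points of 1 library each describe these libraries only. The part of the cell types marked by these lists was not tested.

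The same Pearson's r over the 14 libraries includes the brain and cerebellum values that chose the members. The names most like each member by it, among 418 names, were thus likely to be highest in brain, as all were. For miR-137 they were miR-376b (r = 0.88), miR-212-5p (0.87), miR-410 (0.87), miR-380-3p (0.86) and miR-132 (0.85). miR-376b, miR-410 and miR-380-3p belong to the Dlk1-Dio3 cluster. For miR-153 they were miR-138-1* (0.93), miR-1983, miR-132*, miR-154* and miR-135a-2* (0.90 to 0.91), all between 11.8 and 55.3 RPM in brain. miR-383 was nearest to both arms of the miR-9 hairpin (0.91 for miR-9*, 0.89 for miR-9), and then to miR-598, miR-219-5p and miR-330*. For miR-873 the 5 nearest were miR-770-5p, miR-384-5p, its own other arm miR-873*, miR-3059* and miR-666-3p (0.989 to 0.998), whose levels outside the nervous system were at most 0.356 RPM. A high r is easily reached by a name with reads in 2 libraries only. Spearman's rank correlation with miR-873 was lower for its 5 nearest names, from 0.454 (miR-666-3p) to 0.755 (miR-770-5p).

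The other arms of the hairpins, which the choice did not use, were counted under starred names. The hairpin of miR-873 is shown because both of its arms were counted in number, and that of miR-137 for contrast, with the annotated arms in capitals (RefSeq, GRCm38.p6).
Mir873a hairpin: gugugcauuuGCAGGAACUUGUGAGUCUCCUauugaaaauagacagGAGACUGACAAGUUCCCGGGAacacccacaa
Mir137 hairpin: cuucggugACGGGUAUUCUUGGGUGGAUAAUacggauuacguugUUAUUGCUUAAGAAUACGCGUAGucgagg
By that match the listed member is the 5′ arm for miR-873 and the 3′ arm for miR-137. In brain miR-873* had 183 reads (34.4 RPM, 29.6–39.8), which is 16.6% of the reads of both arms (exact binomial interval 14.5–18.9%). The other starred arms were rare in brain, with 19 reads for miR-137* (0.253%, 0.153–0.395%), 12 for miR-383* (0.142%, 0.0735–0.248%) and 2 for miR-153* (0.0990%, 0.0120–0.357%). Over 146 hairpins with a plain and a starred name and at least 100 reads of both in brain, the median starred share was 1.12%, and 24 had a higher share than miR-873.

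In cerebellum miR-873* had 6 reads (5.29 RPM, 1.94–11.5), 25.0% of both arms (9.77–46.7%), an interval that includes the share in brain. Its brain to cerebellum ratio was 6.51 (2.93–18.0), so this arm was also higher in brain, as the listed arm was with 10.9 (6.86–18.5). The arms come from the same hairpin and the same libraries, so the second value is not a replicate. Outside both neural libraries miR-873* had 3 reads, 2 in stomach and 1 in oesophagus. Starred arms of the other 3 had no read in cerebellum, where a share of up to 21.8% (miR-137*), 23.2% (miR-153*) and 1.87% (miR-383*) lies within the interval, so their ratio was not detectable at this depth. miR-876-5p, from the neighbouring gene of Mir873a, had 3 reads in brain and 2 in cerebellum, and miR-876-3p had none in any library, so the neighbours were not counted at similar levels.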

How the data were processed

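The authors deposited a table of read counts, in whole numbers, by miRNA name for 14 libraries. Per the labels' protocols, RNA was extracted with Trizol, pooled over mice and made into Illumina libraries. Not given in the sources used here were trimming, aligner, miRNA release, genome build and the handling of multiply matching reads. Columns were matched to samples by title. The members and lists were chosen with earlier results of these data known.

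From the deposited counts, RPM (count divided by library total, times 1000000), ratios, tau and correlations were computed with Python 3.11.15, NumPy 2.4.6, pandas 2.3.3 and SciPy 1.17.1. Intervals are exact (Poisson for levels, Clopper-Pearson binomial for shares, conditional binomial for ratios) at 95%. Reads carry no molecular identifiers as far as stated, so intervals and the floor of 3 reads cover only counting error. No test was made, since no tissue had a replicate library, and rules of size (10 RPM, 4-fold) took its place. Interval code was tested on simulated counts. On the neural list miR-212, miR-219 and miR-448 were read as miR-212-3p, miR-219-5p and miR-448-3p, and miR-129-3p matched no name. The text names the members, their other arms and neighbours, names sharing seed bases, the 5 most alike names, and list and marker names. Alternatives were median-of-ratios factors over 162 names, totals without the 5 most abundant names, without miR-143, or without let-7 and miR-378. Others were other minimum levels, tau on log2(RPM/10 + 1), and libraries left out.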

Additional observations from a re-analysis of the deposited data

How the results depend on the processing

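No paired analysis was possible because each tissue has 1 library. Under all 5 scalings the 4 miRNAs were highest in brain and at least 4 times above cerebellum. Brain to cerebellum ratios kept within their counting intervals, except miR-383 with median-of-ratios factors (7.29) and without the 5 most abundant names (7.54). The ratio of brain to the highest of the 12 other libraries depended more on scaling. With median-of-ratios factors it was 19.1 for miR-137, 5.57 for miR-153 and 28.4 for miR-383. Without the 5 most abundant names it was 16.7, 15.7 and 18.8. Without miR-143 it was 22.0 for miR-137 and 17.3 for miR-383, and without let-7 and miR-378 it was 107 and 38.6. For miR-873 it ran from 308 to 1337 over the 4 other scalings, within its counting interval of 220 to 6598. The highest of the 12 was the uterus library for miR-137 and kidney for miR-383 under every scaling. Tau was also computed on log2(RPM/10 + 1) in place of log2(RPM + 1), which brings levels far below 10 RPM close to no level. It was then 0.911 for miR-137, 0.949 for miR-153, 0.867 for miR-383 and 0.973 for miR-873. On log2(RPM + 1) without cerebellum, tau was 0.792 for miR-383 and 0.990 for miR-873, and without the colon, ovary and pancreas libraries 0.695 for miR-383. Names highest in brain numbered 263 of 805 with no minimum, 55 of 222 at 100 RPM and 77 of 365 with median-of-ratios factors. Names at least 4 times above cerebellum numbered 48 of 173 at 100 RPM. The cause of these shifts was not tested. Depth limits miR-873 and miR-153 outside brain, where most libraries hold under 10 reads.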
